A study of Mus musculus with 72 samples.

Results

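The proteasome is the large protease that degrades ubiquitin-tagged proteins, and its subunits are encoded by the *Psm* genes. The set described here holds every protein-coding gene whose symbol starts with *Psma*, *Psmb*, *Psmc*, *Psmd*, *Psme*, *Psmf* or *Psmg* and whose mean normalized count was above 5 in at least 1 of 6 experiments. Of 55401 genes in the tables, 54 carried such a symbol. Of the 54, 4 were pseudogenes and 1, the thymus subunit *Psmb11*, stayed under the minimum, which left 49 genes. Of these, 46 are described together and the 3 immunoproteasome genes *Psmb8*, *Psmb9* and *Psmb10* apart. The testis subunit *Psma8* passed the minimum only outside gastrocnemius, so that 45 of the 46 were tested in muscle. *Psmc3ip* matches the symbol rule but encodes a recombination factor and no proteasome subunit. The counts of 45 and 46 include it.

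RNA was sequenced from male mice at Zeitgeber time 1. WT littermates were compared with whole-body *Bmal1*-KO mice, which lack the core clock factor BMAL1 in every tissue, and with KO+AAV mice, which are *Bmal1*-KO mice given an AAV9 vector as pups that drives HA-tagged *Bmal1* from the muscle-specific CK6 promoter. Gastrocnemius was taken at 10 weeks (6 WT, 6 KO and 7 KO+AAV) and at 40 weeks (5 of each). In a separate experiment 3 KO+GFP muscles, from *Bmal1*-KO mice given AAV9-CK6-GFP, were set against 3 KO control muscles at 10 weeks. Lung, liver, heart and white fat came from 40-week KO and KO+AAV mice (4 libraries each), and there were no WT libraries of these tissues. Every difference below is on the log2(normalized count + 1) scale, and a gene is said to have changed where limma's Benjamini-Hochberg adjusted *P*, taken over all genes tested in that comparison, was under 0.05.

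In the full complex a barrel of stacked alpha and beta rings, the 20S core, is capped by the 19S regulatory particle. Subunits of the beta rings cut the protein, the ATPases of the cap (*Psmc* genes) unfold it and feed it into the barrel, and the non-ATPase subunits (most *Psmd* genes) recognize and remove ubiquitin and hold the cap together. Other caps (*Psme* genes) open the barrel without ubiquitin, and dedicated chaperones (*Psmg* genes with *Psmd5*, *Psmd9* and *Psmd10*) assemble the rings and the cap. In skeletal muscle the pathway is best known for breaking down contractile proteins during atrophy, when FOXO transcription factors raise the ubiquitin ligases *Fbxo32* and *Trim63*, and NRF1 (*Nfe2l1*) is the factor known to raise proteasome subunit genes as a group when proteasome capacity falls short.

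Libraries held 6754312 to 50755829 reads counted on genes. The 10-week muscle groups mixed 2 sequencing sites of unequal depth, and the 40-week muscle groups came from 1 of them. Lung, liver, heart and white fat came from the other site. *Arntl* (*Bmal1*) itself was counted at 480 to 608 in WT at 40 weeks and at 308 to 395 in 4 of 5 KO muscles, but at 1039 in KO replicate 2, and its reads were no higher in KO+AAV (268 to 359) than in KO. Whether reads of the vector's own transcript were counted on *Arntl* was not tested. The BMAL1 targets *Nr1d2*, *Per3* and *Dbp* were higher in KO+AAV than in KO at 10 weeks (log2 differences 1.96, 2.99 and 1.75) and at 40 weeks (1.74, 3.20 and 1.85), and all 3 passed at 40 weeks without the libraries described next (adjusted *P* = 6.57e-06, 2.30e-05 and 0.000280).

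A pair of 40-week muscles, KO replicate 2 and KO+AAV replicate 2, stood apart from the other libraries. KO replicate 2 was the highest of its group for 36 of 44 proteasome genes, and KO+AAV replicate 2 was the highest for 34 of 44. The mean log2 level of these 44 genes was 10.2 and 10.32 in the pair, against 9.72 to 9.93 in the other 8 KO and KO+AAV muscles and 9.53 to 9.69 in the 5 WT muscles. The same pair carried *Fbxo32* at 37693 and 39574 normalized counts, where all other 40-week muscles lay between 4347 and 9286. *Trim63* was at 63967 and 34644 in them and at 2892 to 5792 elsewhere at 40 weeks. Both libraries are labelled as ordinary replicates. Counts of called genes at 40 weeks are therefore given with and without the pair, and the other 40-week values are from all libraries unless stated. The 10-week comparisons and that of WT with age share their estimate of the spread with the pair. They were not refitted with only the pair left out, so the pair may widen the spread in those tests. The immunoproteasome was low in the same libraries, and the pair had the lowest level of its 3 genes (5.10 and 5.16, against 5.74 to 6.79) among the 34 gastrocnemius libraries.

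**Figure D1:**
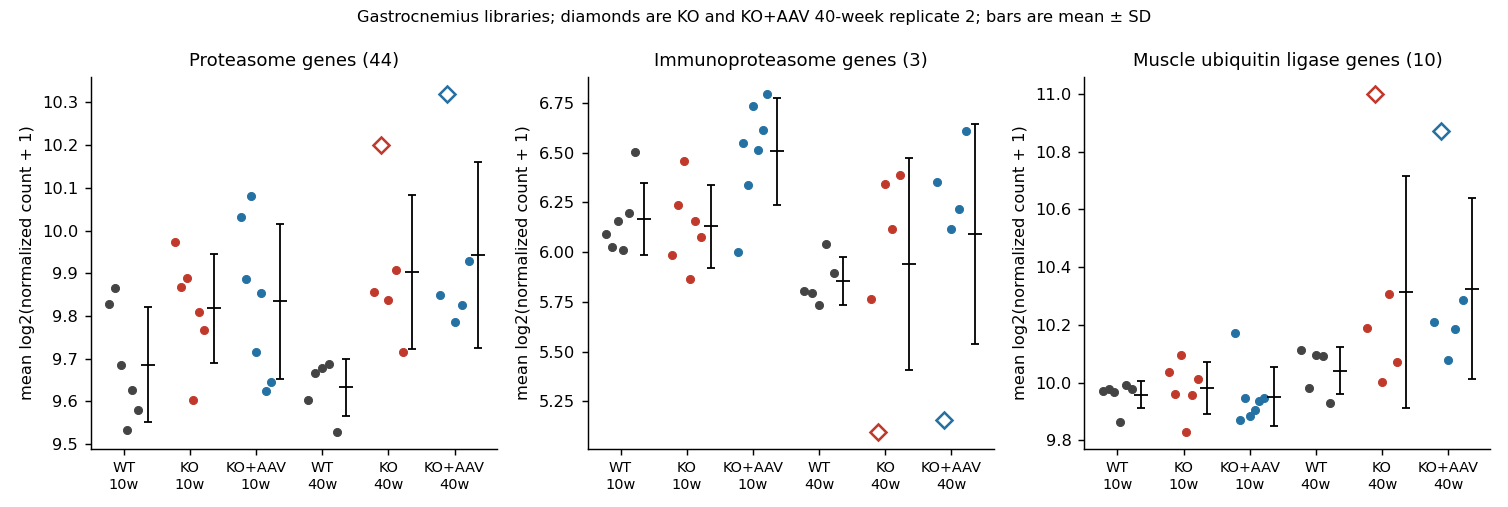
Mean log2(normalized count + 1) of 44 proteasome genes, the 3 immunoproteasome genes and 10 muscle ubiquitin ligase genes in each of the 34 gastrocnemius libraries, by group, with the group mean ± SD as bars. The diamonds, KO and KO+AAV 40-week replicate 2, lie above every other library for the proteasome (10.2 and 10.32) and the ligases and below every other library for the immunoproteasome.

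Levels per length were compared between genes as reads per kilobase of exon scaled to library depth (RPKM). In 40-week KO gastrocnemius 48 genes were ranked, with *Psmc3ip* left out. The median of those outside the immunoproteasome stood at 26.0 on this scale. The ATPase *Psmc1* was first at 81.7 (69.0 to 91.3, n = 5), followed by the ATPases *Psmc5* at 78.5 (75.3 to 84.2) and *Psmc3* at 78.2 (72.6 to 94.9). The 5 libraries of these neighbours overlapped, so that their order is not resolved. *Psma6* of the alpha ring or an ATPase also led in lung, heart and white fat, and the noncatalytic beta subunit *Psmb4* led in liver at 75.0, within the range of *Psmc1* at 74.6. Accessory genes lay lower. The chaperones had a median of 3.37 per gene in KO gastrocnemius, the inhibitor *Psmf1* stood at 2.40, and the median of *Psma8* was 0.

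Proteasome genes differed between WT and KO muscle at 40 weeks. Of 45 proteasome genes tested outside the immunoproteasome, 18 were lower in WT and 1 was higher, where 23.5% of the 16199 genes tested changed in either direction (11.5% lower and 12.0% higher). The median log2 difference over the 45 genes was -0.30, against 0.01 over all genes, and 5 of 45 differences were positive. At the study's own threshold, an unadjusted *P* under 0.01, 17 were lower and 1 higher by limma (background 22.5%). The study itself took that *P* from DESeq2. In 14 of the 45 every WT library lay below every KO library, which held for 6.67% of all genes. Without the pair of libraries that stood apart, 15 were lower and 1 higher, with a background of 21.4% and a median of -0.20. No member was added, and *Psma3*, *Psmb2* and *Psmd7* were lost.

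*Psmd11* had the largest of these differences with all libraries. This gene, a scaffold subunit of the 19S lid that has been tied to how much complete proteasome a cell assembles, lies on chromosome 11 at 80428615 to 80473248 (GRCm38). Its normalized counts were 1626, 1571, 1588, 1537 and 1518 in the 5 WT muscles and 2281, 5493, 2552, 2241 and 2008 in the 5 KO muscles. All KO values exceeded all WT values, and the highest was replicate 2. The log2 difference of WT from KO was -0.78 ± 0.18 (SE, adjusted *P* = 0.00203), and -0.53 ± 0.09 (adjusted *P* = 8.12e-05) without the pair. *Psmd13*, another lid subunit, was at 956 to 1078 in WT and at 1179 to 1560 in KO (-0.43 ± 0.09, adjusted *P* = 0.000641, and -0.38 ± 0.08 without the pair), again with no overlap. In the lid and neighbouring subunits 6 of 11 genes were lower in WT, namely *Psmd11*, *Psmd12*, *Psmd13*, *Psmd14* (the deubiquitinase of the cap), *Psmd3* and *Psmd7*. The ubiquitin receptor *Psmd4* had -0.39 and did not pass.

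Of the 6 ATPases, *Psmc1*, *Psmc3* and *Psmc6* were lower in WT. *Psmc6* was counted at 1487, 1328, 1458, 1423 and 1205 in WT and at 1685, 2631, 1766, 2075 and 1716 in KO, without overlap. Its log2 difference was -0.50 ± 0.13 (adjusted *P* = 0.00427), and -0.39 ± 0.08 without the pair. In the alpha ring *Psma1*, *Psma3* and *Psma5* of 7 tested genes were lower in WT, and all 7 had a negative difference. *Psma1* was at 884 to 990 in WT and 1187 to 1728 in KO (-0.50, and -0.40 without the pair). The noncatalytic beta subunits *Psmb1*, *Psmb2* and *Psmb3* of 4 were lower too. *Psmb1* had the smallest *P* of all members. It was at 1259, 1343, 1474, 1299 and 1224 in WT and at 1773, 2865, 1784, 1863 and 1714 in KO, a log2 difference of -0.57 ± 0.12 (adjusted *P* = 0.000557; -0.44 ± 0.08 without the pair).

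None of the 3 constitutive catalytic subunits passed the test. *Psmb5*, the chymotrypsin-like subunit, was at 421 to 591 in WT and 437 to 686 in KO (-0.12 ± 0.15). *Psmb6*, the caspase-like subunit, overlapped between groups as well (-0.08 ± 0.09), and so did the trypsin-like *Psmb7* (-0.22 ± 0.11, adjusted *P* = 0.161). By edgeR and DESeq2 no catalytic gene changed here either, and without the pair the differences were -0.05, -0.06 and -0.17. Reads of *Psmb5* may be shared, since 54.1% of its 50-base words also occur in transcripts of other genes. Whether the catalytic genes differ from the noncatalytic ones was not tested.

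The assembly chaperones did not move one way. *Psmg1*, which helps to build the alpha ring, was the only member higher in WT, at 89.0, 134, 126, 134 and 90.7 against 103, 41.2, 67.4, 62.5 and 88.3 in KO. The groups overlapped, and replicate 2 held the lowest KO value. Its log2 difference was 0.70 ± 0.18 (adjusted *P* = 0.00397), and 0.51 ± 0.15 (adjusted *P* = 0.0118) without the pair. *Psmg4*, a partner in ring assembly, was lower in WT (-0.63 ± 0.19, adjusted *P* = 0.0135, and -0.57 with an adjusted *P* of 0.0407 without the pair), as was *Psmd10*, a chaperone of the ATPase base (-0.42 ± 0.14, and -0.39 without the pair). *Psmg4* had only 35.6 to 100 normalized counts in these muscles. Among the activators *Psme3*, the nuclear cap, was lower in WT by a small margin, without overlap (771 to 887 against 964 to 1055, log2 difference -0.26 ± 0.06, and -0.24 without the pair), and *Psme1*, *Psme2* and *Psme4* overlapped between groups.

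**Figure D2:**
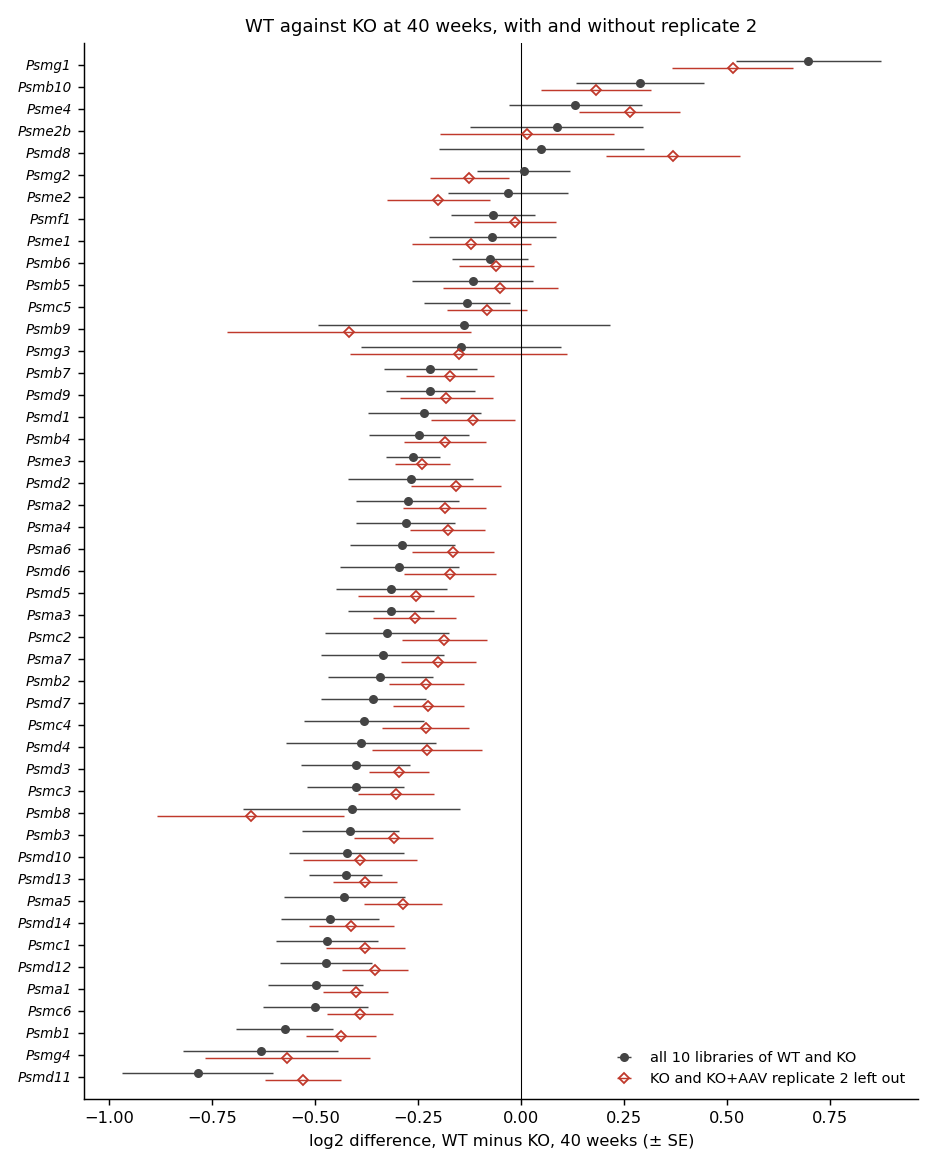
Log2 difference of WT from KO gastrocnemius at 40 weeks, ± SE, for the 48 tested genes except *Psmc3ip*. Filled circles are from all libraries and open diamonds are without KO and KO+AAV replicate 2. *Psmg1* lies at the upper end (0.70) and *Psmd11* at the lower (-0.78). The median of the 45 genes outside the immunoproteasome, *Psmc3ip* included, shifts from -0.30 to -0.20.

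KO+AAV muscle at 40 weeks had proteasome levels above WT as well. WT against KO+AAV gave 19 lower and 1 higher of 45 (background 12.5%, 6.41% lower), with a median of -0.35. At an unadjusted *P* under 0.01, 22 were lower and 1 higher (background 14.6%). In 17 of the 45 the groups did not overlap, against 6.13% of all genes. *Psmd11* was at 1916, 4466, 2278, 2254 and 2701 in KO+AAV, all above the WT values given above. *Psmb1* was at 1667, 2679, 1884, 1915 and 2015 and *Psmc6* at 1718, 3288, 1785, 1730 and 2075, likewise above all 5 WT muscles. Without the pair 17 genes were lower and none higher (background 14.1%, median -0.22). The ATPases *Psmc2* and *Psmc4* passed in this comparison and *Psma3* did not. Both comparisons use the same WT libraries, so their lists are not independent.

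The direct test of the vector, KO+AAV against KO, found no proteasome gene at 40 weeks, where 0.259% of all genes changed. The count was 0 of 45 with limma, edgeR and DESeq2, and 1 of 45 had an unadjusted *P* under 0.05 (background 10.1%). Differences ran from -0.23 (*Psmf1*) to 0.39 (*Psmd8*), with a median of 0.05, and 33 of 45 were positive. Without the pair the count was again 0 (background 0.210%) and the median was 0.01. At 10 weeks the count was also 0 of 45 by all 3 tools (background 0.204%), none had an unadjusted *P* under 0.05 (background 9.23%), and the differences lay between -0.21 and 0.17 with a median of 0.00. A count of 0 does not show that the groups are equal.

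**Figure D3:**
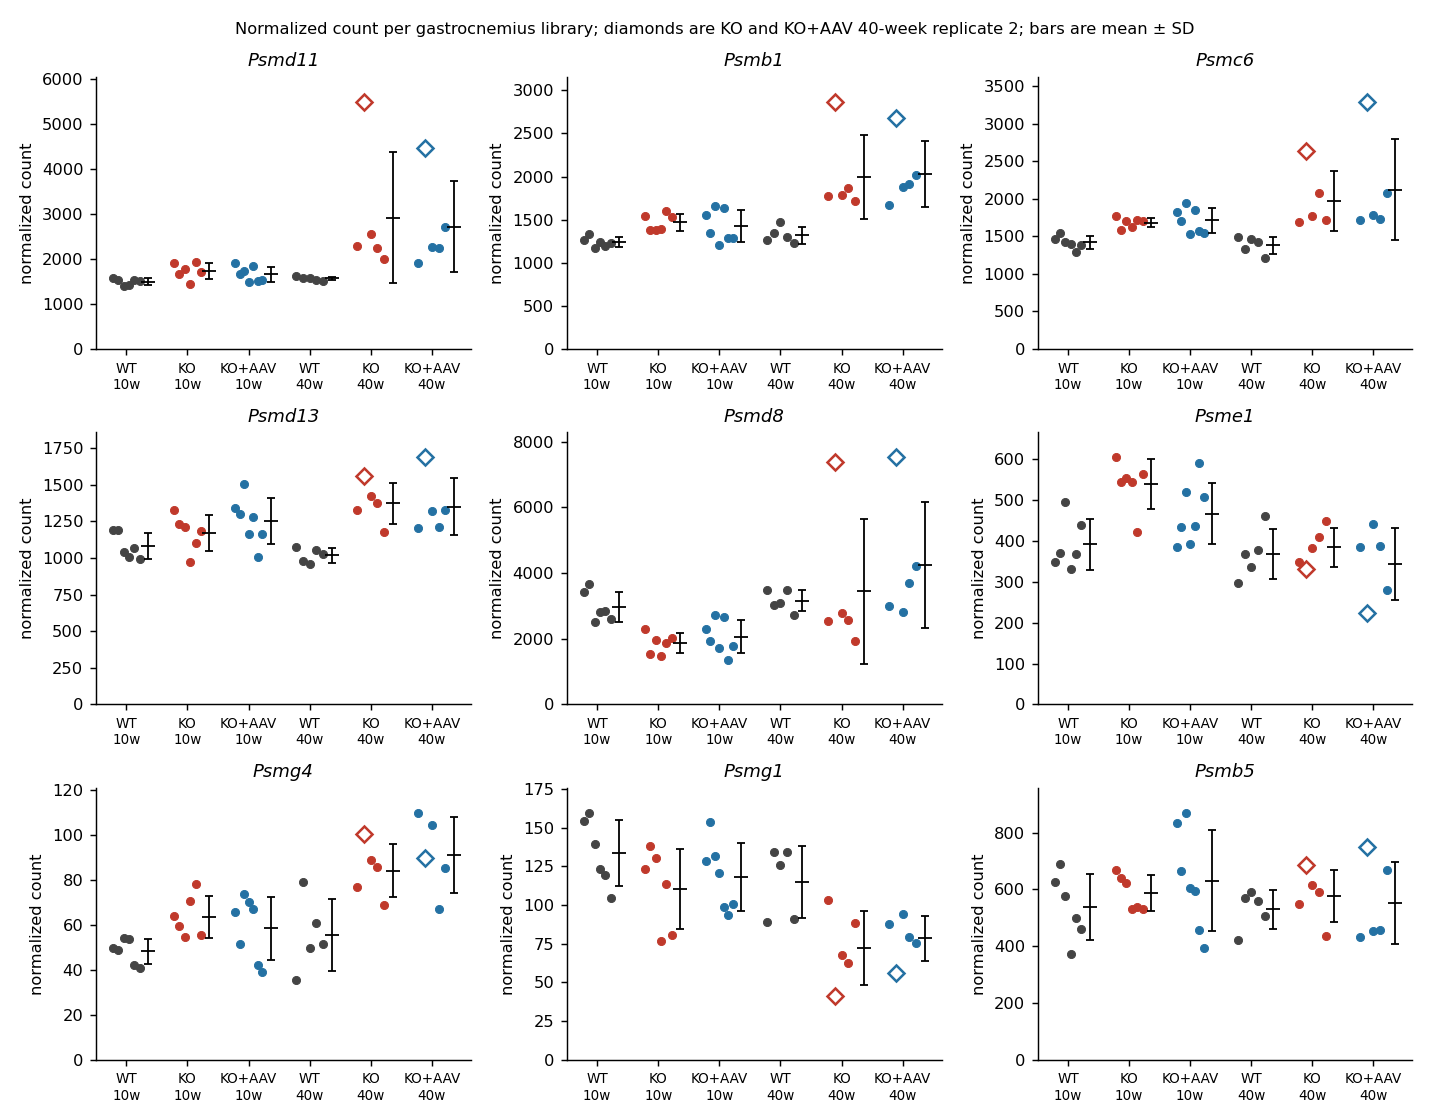
Normalized counts of 9 genes in each gastrocnemius library, by group, with mean ± SD as bars and KO and KO+AAV 40-week replicate 2 as diamonds. For *Psmd11*, *Psmb1*, *Psmc6* and *Psmd13* all KO and KO+AAV values at 40 weeks lie above all 5 WT values, whereas *Psmb5* overlaps between groups.

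At 10 weeks the same direction was present but small. WT against KO gave 1 lower and 0 higher of 45 (background 8.0%), with 39 negative differences and a median of -0.15, against -0.01 over all genes. At an unadjusted *P* under 0.05, 12 were lower and 1 was higher (background 19.6%), and at 0.01 the counts were 2 and 1 (background 10.9%). The gene that passed was *Psme1*, a subunit of the interferon-inducible activator cap, with WT values of 348, 372, 495, 331, 369 and 439 and KO values of 605, 543, 553, 544, 422 and 563. KO replicate 6, at 422, lay below WT replicates 4 and 7, and the other 5 KO values exceeded all WT values. Its log2 difference was -0.46 ± 0.14 (adjusted *P* = 0.0352), and -0.50 and -0.42 at the 2 sequencing sites. In neither site alone did it pass (adjusted *P* = 0.137 and 0.459), with 0 of 45 called in each (background 2.70% and 1.85%), nor without the filter on low values (adjusted *P* = 0.0650). Groups did not overlap in 5 genes that were lower in WT (background 2.61%), *Psmb1*, *Psmb3*, *Psmc6*, *Psmd3* and *Psmg4*, with log2 differences of -0.21 to -0.39, none of which passed. In 1 gene they did not overlap with WT higher (background 3.45%). This was *Psmd8*, a lid subunit, at 2523 to 3656 in WT and at 1483 to 2283 in KO (0.68 ± 0.23, adjusted *P* = 0.0614). WT against KO+AAV gave 0 of 45 by limma and edgeR and 3 by DESeq2 (background 5.15%), with 10 lower and 1 higher at an unadjusted *P* under 0.05 (background 18.1%), 4 lower at 0.01 (background 8.75%) and a median of -0.16.

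Comparison of the ages asked whether the members moved between 10 and 40 weeks. In WT 0 of 45 changed with limma, edgeR and DESeq2 (background 0.148%), none had an unadjusted *P* under 0.05 (background 7.46%), and the median was 0.05. This WT test also shares its spread with the pair and was not rerun without the pair. In KO 4 were higher and 1 lower at 40 weeks (background 8.31%, median 0.23), and in KO+AAV 7 were higher and none lower (background 8.53%, median 0.24). At an unadjusted *P* under 0.01 these counts were 4 and 1 in KO and 11 and 1 in KO+AAV (background 12.1% in each). Without the pair these became 2 higher in KO (background 4.44%) and 4 higher in KO+AAV (background 7.09%), with a median of 0.14 in each. The 40-week muscles came from 1 sequencing site, and in the libraries of that site alone the counts were 0 in KO (background 2.41%) and 1, *Psmg4*, in KO+AAV (background 2.23%). That run kept the pair, and no run used the 1 site with the pair left out. *Psmd11* rose in both KO (0.67) and KO+AAV (0.68), and still did so without the pair (0.41 and 0.48), but did not pass in the 1 site alone (0.68 in each, adjusted *P* = 0.127 and 0.146). *Psmd8* rose by 0.81 in KO and 1.08 in KO+AAV, and without the pair only the second passed (0.85 ± 0.17, adjusted *P* = 0.00131). In the 1 site alone neither passed (adjusted *P* = 0.184 and 0.0682). The test of the difference between ages of WT against KO found 0 of 45 by limma, edgeR and DESeq2 (background 0.370%, and 0.395% without the pair), with 4 at an unadjusted *P* under 0.05 (background 13.0%), so the larger count at 40 weeks is not shown to be a larger effect. The same test of KO+AAV against KO also gave 0 by all 3 tools (background 0.00617%, and 0.00% without the pair), with 2 at an unadjusted *P* under 0.05 (background 5.15%).

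**Figure D4:**
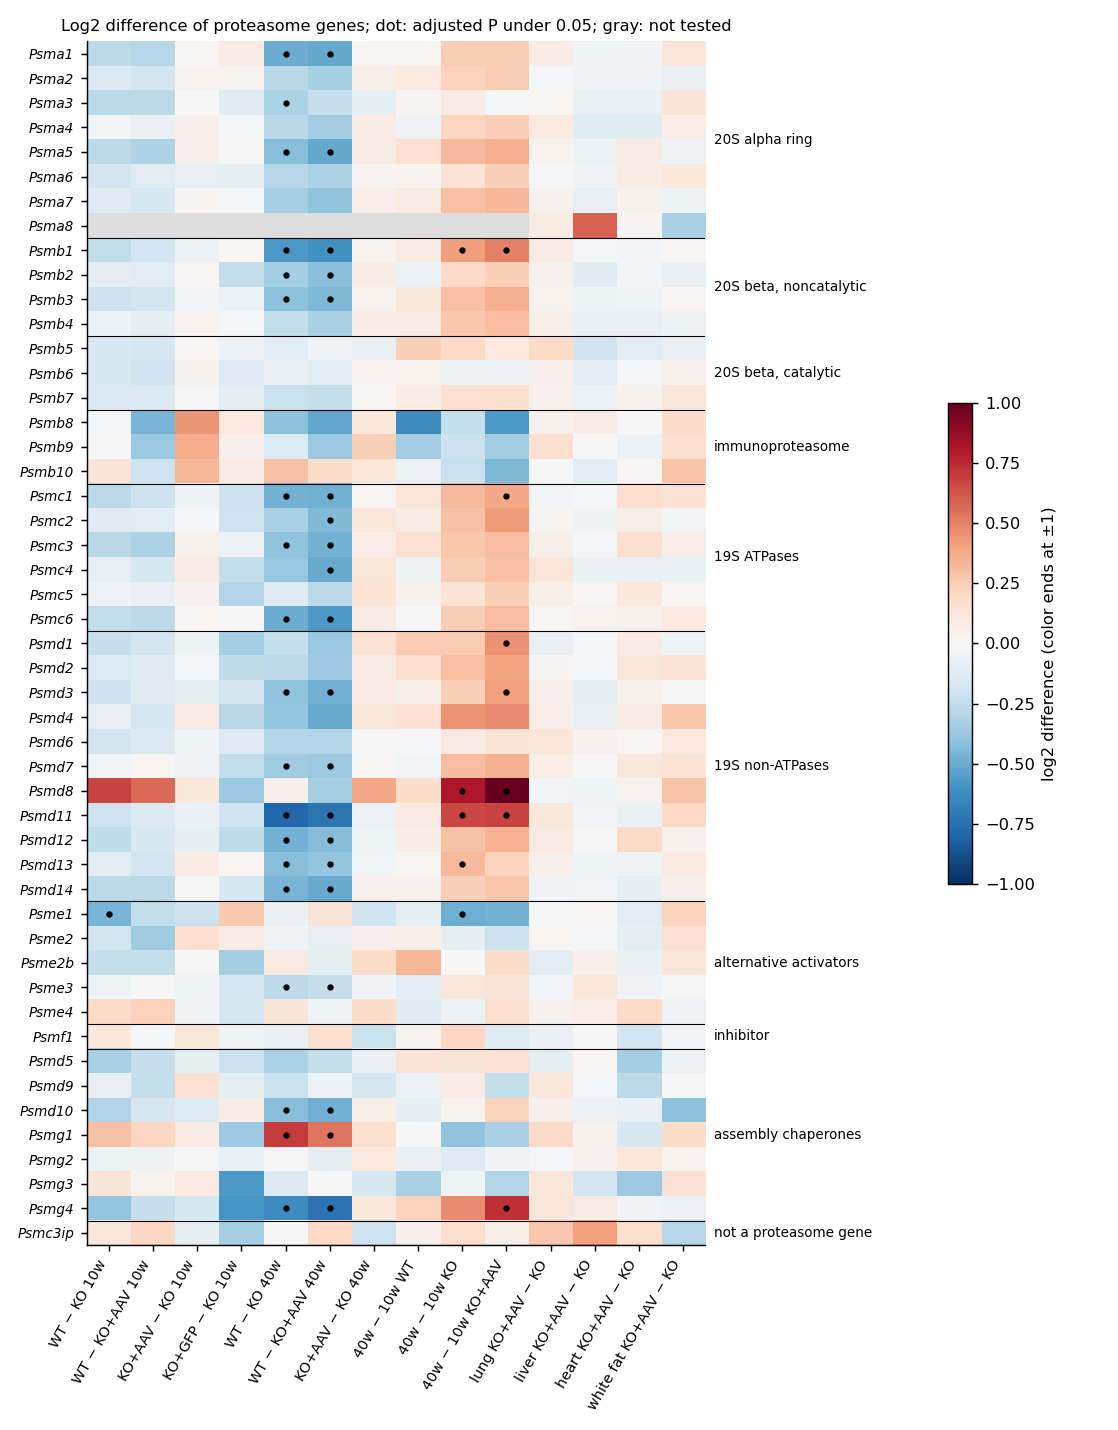
Log2 differences of the 49 genes (rows, grouped by role) in 14 comparisons (columns), with a dot where the adjusted *P* was under 0.05 and gray where a gene was not tested. Dots gather in the columns of WT against KO (19) and WT against KO+AAV (20) at 40 weeks, and the KO+AAV against KO columns hold none.

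Promoters are shown for *Psmc6*, *Psmd12* and *Psma1*, which were lower in WT at 40 weeks, for *Psme1*, the gene that passed at 10 weeks, and for *Psmb8* of the immunoproteasome. RefSeq sequences of 250 bases before to 50 after the start (GRCm38.p6) were found for 41 of the 49 genes and for 27025 genes in all. Letters in capitals mark matches, on either strand, to an antioxidant response element (TGACNNNGC, the site of NRF1 and NRF2), a CCAAT box (CCAAT), an interferon-stimulated response element (GAAA, any 2 bases, GAAA) or a gamma-activated site (TTCNNNGAA). *Psmc6* and *Psmd12*, both lower in WT, hold the first, *Psma1* holds 2 CCAAT boxes, and *Psme1* and *Psmb8* hold the sites of the interferon factors.
*Psmc6* (chr14:45329574-45329873, plus strand): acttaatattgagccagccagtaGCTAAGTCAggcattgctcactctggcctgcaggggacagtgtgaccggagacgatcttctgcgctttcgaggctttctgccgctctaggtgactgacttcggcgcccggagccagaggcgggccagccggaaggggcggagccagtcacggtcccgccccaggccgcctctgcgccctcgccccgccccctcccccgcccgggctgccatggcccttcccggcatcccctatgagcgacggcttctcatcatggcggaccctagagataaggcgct
*Psmd12* (chr11:107479278-107479577, plus strand): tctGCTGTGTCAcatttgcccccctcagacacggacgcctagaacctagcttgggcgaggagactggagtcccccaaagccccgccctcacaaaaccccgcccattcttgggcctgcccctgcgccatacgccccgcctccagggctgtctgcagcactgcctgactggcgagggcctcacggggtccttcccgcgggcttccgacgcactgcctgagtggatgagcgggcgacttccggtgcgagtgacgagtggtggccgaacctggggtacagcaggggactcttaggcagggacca
*Psma1* (chr7:114276067-114276366, minus strand): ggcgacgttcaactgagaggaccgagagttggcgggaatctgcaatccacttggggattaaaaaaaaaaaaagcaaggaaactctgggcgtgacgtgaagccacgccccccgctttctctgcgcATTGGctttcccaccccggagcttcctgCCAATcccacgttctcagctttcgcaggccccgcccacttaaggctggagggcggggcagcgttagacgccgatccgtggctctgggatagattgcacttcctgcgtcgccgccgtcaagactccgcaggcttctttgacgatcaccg
*Psme1* (chr14:55578244-55578543, plus strand): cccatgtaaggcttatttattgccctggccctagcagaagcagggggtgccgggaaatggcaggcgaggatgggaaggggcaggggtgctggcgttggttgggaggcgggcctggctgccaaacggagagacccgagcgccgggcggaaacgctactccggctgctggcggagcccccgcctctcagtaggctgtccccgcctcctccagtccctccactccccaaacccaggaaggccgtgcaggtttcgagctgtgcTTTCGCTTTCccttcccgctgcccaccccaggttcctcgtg
*Psmb8* (chr17:34197945-34198244, plus strand): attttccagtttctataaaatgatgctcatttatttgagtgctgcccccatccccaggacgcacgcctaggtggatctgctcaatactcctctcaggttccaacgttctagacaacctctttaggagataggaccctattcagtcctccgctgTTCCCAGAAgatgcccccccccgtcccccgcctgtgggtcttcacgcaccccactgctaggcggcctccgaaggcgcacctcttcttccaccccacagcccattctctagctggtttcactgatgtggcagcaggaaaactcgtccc

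Such matches were about as frequent among members as elsewhere for most motifs. The antioxidant response element occurred in 6 of 41 members (14.6%) and in 14.0% of all genes, and in 2 of the 13 members with a promoter that were lower in WT at 40 weeks. The CCAAT box occurred in 14 members (34.1%, against 41.1%), the gamma-activated site in 3 (7.32%, against 9.55%) and the interferon-stimulated response element in 5 (12.2%, against 3.99%). The E-box CACGTG of BMAL1 was found in *Psma4*, *Psmb10*, *Psmd9* and *Psme3* (9.76%, against 8.09%), and the D-box TTATGTAA in none (against 1.11%). These windows are short, and a match is a run of letters, not a bound site.

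Other genes of the pathway were counted in the same comparison of WT with KO at 40 weeks, where 23.5% of all genes changed and 11.5% were lower in WT. Among 10 subunits and partners without a *Psm* symbol, 3 were lower in WT and 1 higher, including the core maturation factor *Pomp* (-0.34 ± 0.10, 747 to 971 against 952 to 1234) and the cap deubiquitinase *Uchl5* (-0.48 ± 0.11). Without the pair these were -0.31 and -0.43. Of 7 transcription factors and processing factors, 3 were lower and 1 higher. *Nfe2l1* was at 14328 to 15006 in WT, at 14719 to 26097 in KO and at 19605 to 27954 in KO+AAV. Its WT values thus lay below all KO+AAV values and overlapped KO (-0.39 ± 0.12 against KO, -0.64 ± 0.12 against KO+AAV, and -0.36 and -0.62 without the pair), and at 10 weeks the difference was 0.08 with an adjusted *P* of 0.767. *Nfe2l1* rose with age in KO (0.85, background 8.31%) and in KO+AAV (1.11, background 8.53%), with the pair kept. In WT its difference of 0.38 did not pass (adjusted *P* = 0.305, background 0.148%). Every WT value at 40 weeks nevertheless lay above every WT value at 10 weeks (9780 to 13190). *Foxo1* had the largest difference of the list, -1.37 ± 0.36, and -0.83 (adjusted *P* = 0.00108) without the pair.

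Among the ubiquitin and ubiquitin-activating genes, *Uba1*, which encodes the main ubiquitin-activating enzyme, was lower in WT at 40 weeks (-0.30 ± 0.06, and -0.27 without the pair), beside a background of 11.5%. The count called in this list is not given here. Of 10 ubiquitin shuttle and segregase genes, 4 were lower in WT, among them *Ubqln1* (-0.41, and -0.33 without the pair) and *Vcp* (-0.34, and -0.27), and *Ubqln4* was higher (0.31 in both), beside the same background of 11.5% lower and 12.0% higher. Of 10 muscle ubiquitin ligases, *Cblb*, *Stub1* and *Fbxo30* were lower in WT (background 11.5%). Without the pair *Fbxo30* did not pass (-0.27, adjusted *P* = 0.191). *Fbxo32* (-0.27 ± 0.44) and *Trim63* (-0.95 ± 0.53) did not pass, and without the pair, which held their highest values, they stood at 0.27 and -0.14. Of the 43 genes of these lists, limma, edgeR and DESeq2 called none in KO+AAV against KO at either age. At an unadjusted *P* under 0.05 each tool gave 1 of them at 10 weeks, and at 40 weeks they gave 5, 3 and 6 (background with limma 9.23% and 10.1%).

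Markers of other cells were compared beside these results. The 12 leukocyte markers summed to 377 to 789 normalized counts in WT, 109 to 739 in KO and 138 to 1018 in KO+AAV, so that the groups overlapped, and 1 of 8 tested was higher in WT than in KO. Muscle fiber markers had a median difference of 0.20 between WT and KO, with 1 of 8 higher and none lower. Hepatocyte markers summed to at most 411 in WT, where *Alb* reached 357 in 1 library, and to at most 7.14 in KO. Some cardiomyocyte and adipocyte markers differed with genotype at 40 weeks. The mean log2 level of the 6 cardiomyocyte markers was 4.92 to 5.71 in WT and 5.80 to 6.46 in KO, without overlap, and 4.56 to 6.33 in KO+AAV. The sums of these markers overlapped at the ends (737 to 6275 in WT and 6203 to 17076 in KO). Of 4 tested, *Actc1*, an actin that skeletal muscle also makes, was lower in WT than in KO (-2.54 ± 0.50). The 5 adipocyte markers were at 6.83 to 9.16 in WT, 5.52 to 6.86 in KO and 5.66 to 7.65 in KO+AAV, so that WT and KO overlapped. Their sums overlapped as well (1736 to 3974 in WT and 1673 to 2984 in KO). *Lep* (5.82 ± 0.80) and *Adipoq* (2.06 ± 0.68) were higher in WT than in KO. None of the 5 was at 0 throughout a group, and of the cardiomyocyte markers only *Myl7* was, in WT. The part of these reads in the proteasome values was not tested, and in bulk tissue fewer cells of a type and less RNA per cell cannot be told apart.

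AAV9-CK6-GFP served as the vector control. Between 3 KO+GFP and 3 KO control muscles at 10 weeks, 0 of 45 proteasome genes changed with limma and edgeR and 1 with DESeq2 (background 3.09%), and 13 had an unadjusted *P* under 0.05, all lower in KO+GFP (background 18.7%). The median was -0.13, against 0.00 over all genes, and in 15 of 45 genes all KO+GFP values lay below all control values, which held for 12.4% of genes. *Psmd1*, the large scaffold of the cap, was at 1057, 978 and 1132 in KO+GFP and at 1303, 1378 and 1316 in the controls (-0.34 ± 0.08, adjusted *P* = 0.0517). Muscle fiber markers had a median of -0.29, with 7 of 8 negative and 1 called higher, and leukocyte markers summed to 409 to 725 in KO+GFP and 181 to 348 in the controls. Cardiomyocyte markers had a mean log2 level of 5.34 to 5.77 in KO+GFP and 4.57 to 5.05 in the controls. Their part in the proteasome values was not tested. Both vectors were given to different sets of mice, sequenced and normalized apart.

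The immunoproteasome replaces the 3 catalytic subunits with interferon-inducible ones, *Psmb9* for *Psmb6*, *Psmb10* for *Psmb7* and *Psmb8* for *Psmb5*, and it serves antigen presentation in immune cells. Muscle expressed it at a low level. At 40 weeks *Psmb8* was at 43.0, 43.9, 44.2, 51.6 and 46.9 in WT, at 56.4, 30.4, 92.0, 64.2 and 84.1 in KO and at 123, 37.9, 49.9, 67.1 and 80.3 in KO+AAV. All WT values lay below 4 of 5 KO and 3 of 5 KO+AAV values, and the exceptions were the pair and KO+AAV replicate 3. With all libraries *Psmb8* did not pass (-0.41 ± 0.26, adjusted *P* = 0.275). Without the pair it did, against KO (-0.66, adjusted *P* = 0.0373) and against KO+AAV (-0.72, adjusted *P* = 0.0322). *Psmb9* (26.3 to 46.9, 16.1 to 51.0 and 15.4 to 88.7) and *Psmb10* (105 to 139, 73.4 to 131 and 70.2 to 136) overlapped across WT, KO and KO+AAV. At 10 weeks none of the 3 changed by limma, edgeR or DESeq2. In KO+AAV against KO, *Psmb8*, *Psmb9* and *Psmb10* had differences of 0.44 ± 0.23, 0.37 ± 0.31 and 0.33 ± 0.14, and *Psmb10* had an unadjusted *P* of 0.021.

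Genes of antigen presentation and leukocyte markers were counted beside them at 10 weeks. Of 14 MHC class I and interferon genes, 13 had a positive difference in KO+AAV from KO (median 0.21, 2 with an unadjusted *P* under 0.05 and none called). In WT against KO+AAV, where 5.15% of all genes changed, *H2-K1*, *H2-D1* and *B2m* were lower in WT (-0.60, -0.57 and -0.60). The rest of the list is not given for that comparison. The 12 leukocyte markers summed to 670 to 3252 in KO+AAV, 215 to 915 in KO and 369 to 1169 in WT, and none was at 0 throughout a group. Of the 8 tested in KO+AAV against KO, 4 were higher at an unadjusted *P* under 0.05 and none was called. Their part in the immunoproteasome values was not tested.

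Across tissues the immunoproteasome took very different shares of each catalytic pair, computed as reads per kilobase within each library and described without a test, since every tissue was normalized on its own. The 40-week gastrocnemius libraries came from 1 sequencing site and those of the 4 other tissues from another. Median depth was 10482000 reads in KO gastrocnemius and 40104474 to 46408699 in the other KO tissues. Gastrocnemius and site therefore cannot be told apart. In 40-week KO mice *Psmb10* made up 5.76% ± 1.68 (SD, n = 5) of its pair with *Psmb7* in gastrocnemius, 20.8% ± 1.54 (n = 4) in heart, 24.0% ± 2.71 in liver, 29.7% ± 5.54 in white fat and 61.2% ± 1.32 in lung. Heart and liver overlapped through KO heart replicate 2 (22.4%), a library with hepatocyte markers. Without it the heart share was 20.2% ± 1.36 (n = 3), at most 21.7% and below the lowest liver (21.8%). Liver and white fat overlapped, whereas gastrocnemius lay below and lung above all other libraries. *Psmb9* followed the same order, from 1.29% ± 0.56 in gastrocnemius to 22.7% ± 2.52 in lung. *Psmb8* ran from 3.06% ± 1.38 in gastrocnemius to 41.2% ± 4.11 in lung, with white fat at 24.6% ± 8.43. *Psmb8* overlapped between gastrocnemius and heart. Without replicate 2 the heart shares of *Psmb9* and *Psmb8* went from 4.17% to 3.26% and from 8.12% to 7.13%. KO white fat replicate 2, a library with epididymis markers, was kept. It had the lowest white fat share of *Psmb9* (6.50%), *Psmb10* (23.5%) and *Psmb8* (13.5%). Only through it did *Psmb9* in white fat overlap liver (5.37% to 7.02%). Leukocyte markers summed to 41657 to 76157 normalized counts in KO lung, 17966 to 52391 in white fat, 2278 to 6040 in heart and 1828 to 4333 in liver. These sums were normalized within each tissue, and the part of leukocytes in the shares was not tested.

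**Figure D5:**
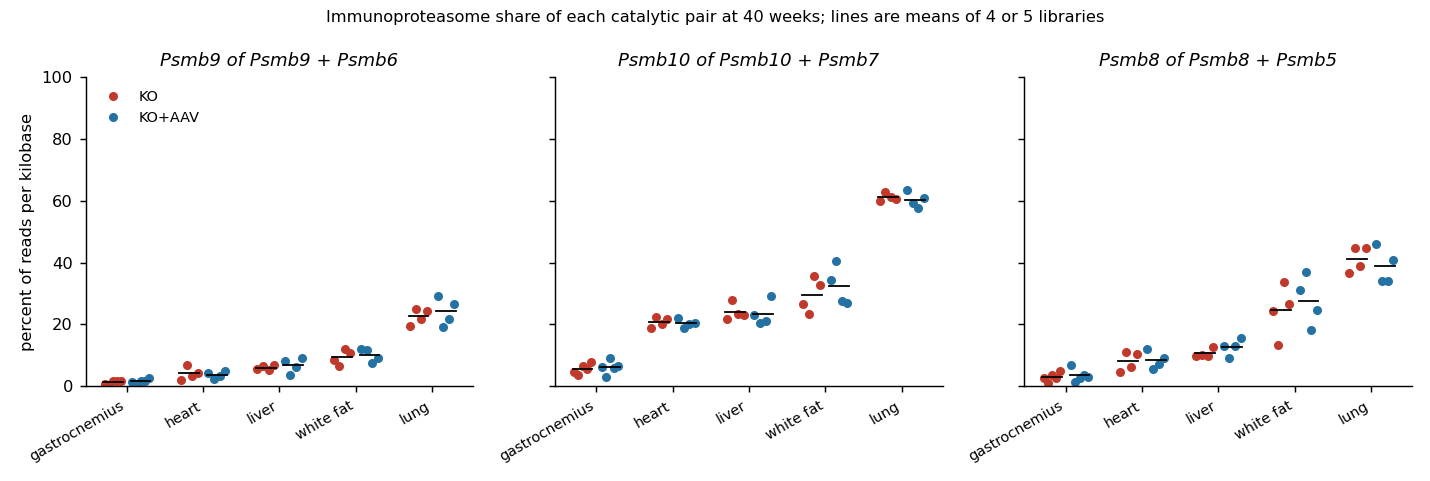
Share of *Psmb9*, *Psmb10* and *Psmb8* in the reads per kilobase of their pair with *Psmb6*, *Psmb7* and *Psmb5*, in percent, for each 40-week KO and KO+AAV library of 5 tissues, with lines at the group means. By group means gastrocnemius is lowest and lung highest in each panel (*Psmb10* 5.76% and 61.2% in KO), and KO and KO+AAV overlap in every tissue.

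In the 4 other tissues, KO+AAV against KO gave 0 of 46 proteasome genes by limma, edgeR and DESeq2 each time. The background was 0.0237% in lung and 0.00% in liver, heart and white fat. At an unadjusted *P* under 0.05 there was 1 of 46 in lung (background 11.9%) and 1 in liver (3.32%), and none in heart (1.28%) or white fat (1.04%). Median differences were 0.05 in lung, -0.02 in liver, -0.03 in heart and 0.04 in white fat. The 1 lung gene was *Psmc3ip*, which is no subunit (0.27 ± 0.11), and the 1 liver gene was *Psmb5* (-0.20 ± 0.08). For *Psmb5* in liver the adjusted *P* was 0.997. The immunoproteasome genes had 0 calls by the 3 tools in each tissue, with the median of the 3 genes between 0.00 in heart and 0.18 in white fat.

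Some libraries of these tissues carried markers of other tissues. KO heart replicate 2 held hepatocyte markers at a mean log2 level of 17.4, where other heart libraries were at 4.09 to 4.77, and it had the highest proteasome level of the KO hearts (11.5). Without it the heart median turned from -0.03 to 0.06, still with 0 of 46 called. KO heart replicate 4 and KO+AAV heart replicate 1 were the lowest of their groups for 39 and 36 of 44 proteasome genes. Among the hearts they had the highest mean log2 levels of the cardiomyocyte markers (17.8 and 17.3), a mean in which each marker counts alike. The summed counts of these markers were 901623 to 2240710 in KO hearts (median 2124830) and 1726470 to 2382370 in KO+AAV hearts (median 2100680). The part of these markers in the proteasome values was not tested. KO white fat replicate 2 held epididymis markers (17.0 against 0.40 to 1.73) and fewer adipocyte reads, and without it the white fat median was 0.01 with 0 called. In lung, cardiomyocyte markers were at 7.52 to 11.9 in KO and 12.2 to 14.3 in KO+AAV, and their part in the lung values was not tested.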

How the data were processed

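Poly-A RNA-seq libraries (72) of gastrocnemius, lung, liver, heart and white fat were analysed. Per the labels, reads were aligned to GRCm38/mm10 with HISAT2, counted per gene with HTSeq and scaled with DESeq2 by the authors, and the deposited values are normalized signal per gene, that is counts divided by a size factor. The labels give no tool versions, annotation release or strand setting. Whole reads were recovered from every library (100% of values above 0 whole within 0.01), which gave the depths stated. Symbols were matched for 55141 of 55401 genes (99.5%).

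Differences were fitted with limma 3.58.1 (R 4.3.3, intensity trend) on log2(value + 1) over genes with a mean above 5, a scale that understates changes of low genes. The 34 main gastrocnemius libraries shared 1 model of 6 groups plus sequencing site, and the GFP experiment and each tissue had a model of its own, so levels are not compared across them. Benjamini-Hochberg adjustment covered all genes tested. Alternatives were a pseudocount of 0.5, no filter, TMM factors, edgeR 4.0.16 and DESeq2 1.42.0 on the recovered reads, the replicate number as a block, no site term, each site alone and leaving out each library. Leaving out KO and KO+AAV 40-week replicate 2 together was chosen after seeing the data. The fits were tested on simulated data. Python 3.11.15, pandas 2.3.3 and matplotlib 3.10.9 made tables and figures.

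The members, gene lists and motifs were chosen with earlier results of these data known. By rule, values were given for the catalytic and immunoproteasome genes and, per comparison, for up to 3 called members in each direction by smallest P; the other genes named were chosen after their values were seen. Some results of the gene lists are not reported here. The labels do not tie replicate numbers to shared animals or days, and same-numbered samples did not all deviate together, so the samples were not paired. The median correlation of same-numbered muscles was 0.0635 at 10 weeks and 0.0401 at 40 weeks, and that of same-numbered white fat libraries was 0.442 with a lowest value of -0.383. No 2 libraries agreed within sampling noise. P-values measure the spread between these samples. Reads that genes share with near-identical copies or overlapping genes could not be assigned with certainty, which touches *Psme2b* (69.3% of 50-base words shared), *Psmb5* (54.1%), *Psma5* (50.0%) and *Psme2* (28.3%), and *Psmb8* shares 14.7% of its exons with an opposite-strand gene.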

Additional observations from a re-analysis of the deposited data

Results flagged for a closer look

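Of 112 group values checked for a sample far from the others of its group, 9 stood out, where chance gives about 1 in 20 groups. Of these, 6 belong to the pair of 40-week muscles described above, which are therefore not separate observations.

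In KO replicate 2 at 40 weeks *Psmb1* was at 2865 (nearest other KO value 1863), *Psmd11* at 5493 (2552) and *Psmd8* at 7375 (2779). In KO+AAV replicate 2 at 40 weeks *Psmd13* was at 1688 (1330) and *Psmc6* at 3288 (2075), and the mean log2 level of the proteasome genes was 10.32 (9.93). At 10 weeks *Psmb9* was at 71.2 in WT replicate 7 (42.4), and *Psme1* was at 422 in KO replicate 6, below the next KO value of 543. The mean log2 proteasome level of KO liver replicate 1 was 11.35, just under the other 3 KO livers (11.41 to 11.42), a gap of small size in a tight group.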

How the results depend on the processing

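No called proteasome gene changed direction under any alternative run. Medians near 0 changed sign when a library was left out in KO+AAV against KO at 40 weeks (-0.08 to 0.14, lowest without KO+AAV replicate 2), in its difference between ages (-0.09 to 0.15) and in heart (-0.12 to 0.06). The median with age in WT turned from 0.05 to -0.04 without the site term, and that of KO+AAV against KO at 10 weeks from 0.00 to -0.01 in the Novogene libraries alone. Counts of the proteasome genes called outside the immunoproteasome moved as follows, and the cause was not tested. WT against KO at 10 weeks (1 gene) gave 0 without the filter, 0 in either sequencing site alone and 2 with the replicate block. WT against KO+AAV at 10 weeks (0) gave 3 by DESeq2. The change with age in KO (5) gave 1 without the filter, 0 in the Novogene libraries alone and 2 without the pair of libraries that stood apart. That in KO+AAV (7) gave 4 without the filter, 12 by DESeq2, 1 in the Novogene libraries alone and 4 without the pair. KO+GFP against control (0) gave 1 by DESeq2. Among the 3 immunoproteasome genes 1 was called without the pair in WT against KO and in WT against KO+AAV at 40 weeks, and 1 with age in KO+AAV by DESeq2 and without the site term.

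With each library left out in turn, the count ran from 11 to 22 for WT against KO at 40 weeks, lowest without KO replicate 2. It ran from 0 to 5 with age in KO, from 3 to 13 with age in KO+AAV (0 to 1 for the immunoproteasome) and from 0 to 2 for KO+GFP against control. The lows with age were without KO replicate 2 and without KO+AAV replicate 2, and the high of 13 was without KO+AAV replicate 3. Samples were not treated as paired by replicate number. With the replicate block WT against KO gave 22 and WT against KO+AAV gave 25 at 40 weeks. Depth limited the 40-week and GFP muscles most, and genes at low normalized counts there, such as *Psmg3*, *Psmb9*, *Psmb8* and *Psmg4*, carry more counting error than the others.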
